A study of Oryza sativa with 18 samples.

Results

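The genes described here encode the receptors of 2 plant hormones in rice: the jasmonate receptors OsCOI1a (LOC_Os01g63420), OsCOI1b (LOC_Os05g37690) and OsCOI2 (LOC_Os03g15880), and the auxin receptors OsTIR1 (LOC_Os05g05800) and OsAFB2 (LOC_Os04g32460). They were chosen by name, with earlier results of these data known, and are 5 of 64687 genes listed. All 5 were among the 30907 genes tested. Their transcripts were counted in crown root tips (about 1 cm) of the cultivar Kitaake, pooled from 20 to 24 plants per sample and frozen 6 h after treatment. The oscoi1ab line was edited with CRISPR/Cas9 in OsCOI1a and OsCOI1b, the oscoi2 line in OsCOI2, and WT plants carry no edit. Each line received 5 µM jasmonic acid (JA) or a mock solution of DMSO. The 6 combinations of line and treatment (oscoi1ab JA and mock, oscoi2 JA and mock, WT JA and mock) had 3 libraries each, 18 in all. Each edited genotype is a single T3 homozygous line with small deletions, so that the edit and anything else particular to that line cannot be told apart.

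COI and TIR1/AFB proteins are closely related F-box proteins, the subunits that give an SCF ubiquitin ligase its choice of substrate. COI proteins bind the conjugate jasmonoyl-isoleucine together with JAZ proteins, the repressors of jasmonate responses, and TIR1/AFB proteins bind auxin together with Aux/IAA proteins, the repressors of auxin responses. In each case the hormone brings receptor and repressor together, and the repressor is then ubiquitinated and degraded by the proteasome. In roots, jasmonate is known to inhibit growth and auxin to direct cell division, elongation and branching.

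The guide targets are the sequences of each jasmonate receptor gene at which the edits aimed. Their place within the gene is not given here. They are written 5′ to 3′ on the guide's own strand, with the PAM (the bases next to the target that Cas9 requires) in capitals. Positions are on the Kitaake assembly made for the study.
OsCOI1a, chr1:37388017-37388039, forward strand: tgctggaggagcattctacgAGG
OsCOI1b, chr5:22293993-22294015, forward strand: ccacatgaccgaactcacagTGG
OsCOI2, chr3:8796630-8796652, reverse strand: ttcgacaattgcgcacaaggAGG
OsCOI2, chr3:8796721-8796743, forward strand: atattacaagactttgccggTGG
Both OsCOI2 targets start 91 bases apart. Each target matches its guide in every base.

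The OsCOI1b guide also has a near match beside the OsCOI1a target, shown because both genes are close homologs and are edited in the same line.
OsCOI1b guide, near match at chr1:37387873-37387895, forward strand: cTacatgacTgaactcaAagTGG
It starts 144 bases from the start of the OsCOI1a target and differs from the guide at 3 positions, C2T, C10T and C18A, counted from 1 at the guide's 5′ end and in capitals together with the PAM. Only the sequence and position of this site were used here. Whether it was cut was not tested, and what the paper found at this one site is not given here. The paper sequenced the genomes of both edited lines and reports that insertions at some off-target sites left protein-encoding genes unaffected. Counts were made over whole genes, so reads with and without a deletion are not separated. Nor were reads that fit both OsCOI1a and OsCOI1b, and the values of both genes are uncertain to that extent.

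Libraries held 99657931 to 113672521 counts. Levels are given in CPM (a gene's counts scaled to a common library total) on the TMM scale, which corrects library sizes for a shift shared by most genes. The TMM factors were 0.853 to 0.975 in JA libraries and 1.05 to 1.14 in mock libraries. The lowest count of any member in any library was 804, for OsCOI1a, so that depth limits none of the members' levels. The root markers OsLsi1, OsLsi2, OsSHR1, OsSCR1 and QHB were found in every library. Log2FC is the log2 fold change fitted by edgeR's quasi-likelihood test, and the FDR is its Benjamini-Hochberg adjusted p over all 30907 genes. A gene is said to have changed at an FDR under 0.01, and is a DEG when log2FC was also at least 1 in size.

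**Figure D1:**
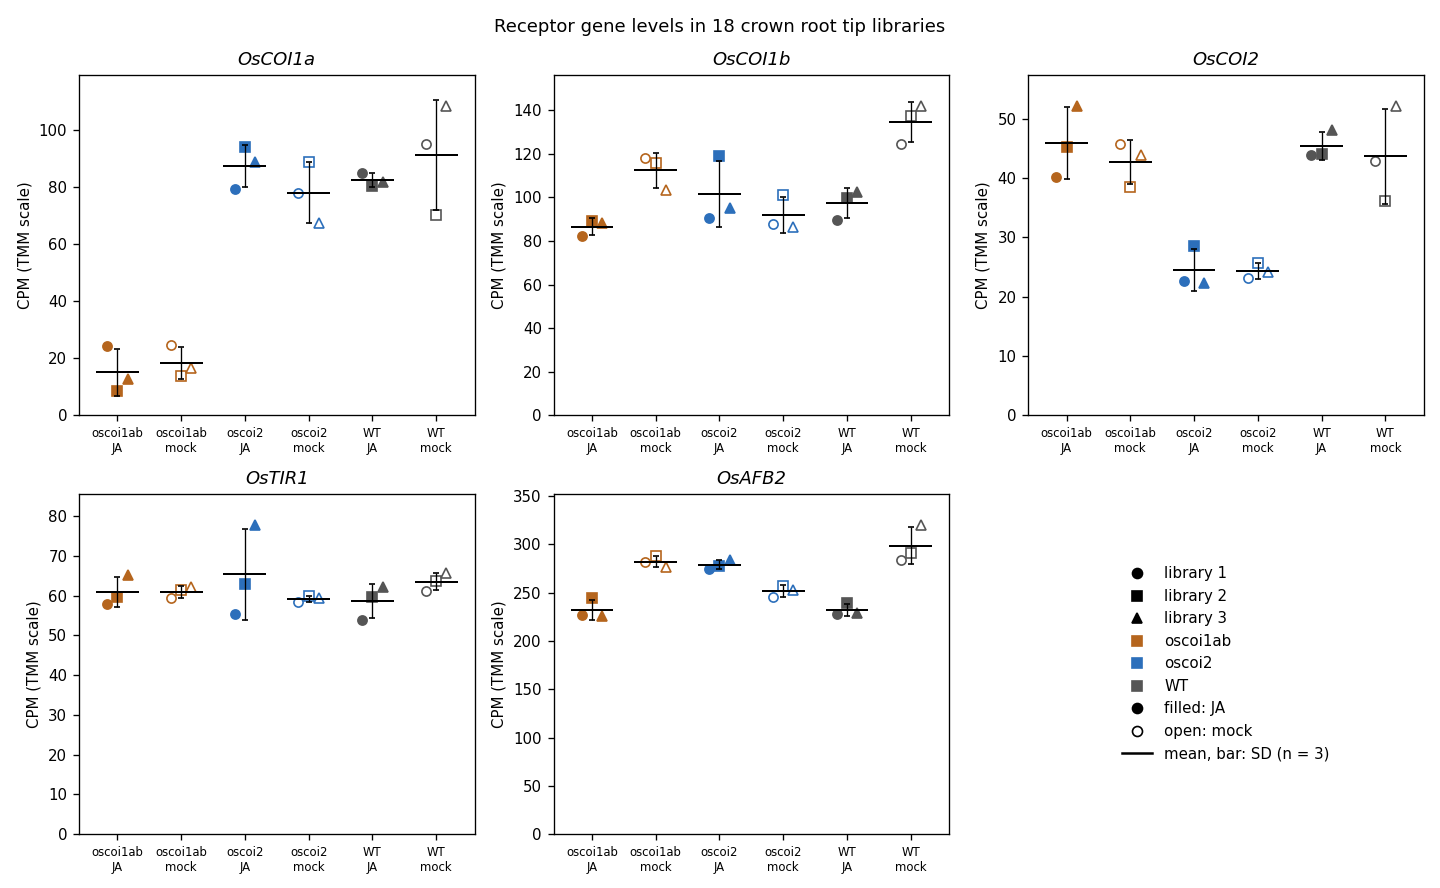
Level of the 5 receptor genes (CPM, vertical axis from 0) in each of the 18 libraries, by line and treatment. Filled points are JA and open points mock libraries, circles, squares and triangles are libraries 1, 2 and 3, lines are means and bars the SD (n = 3). OsCOI1a is low in oscoi1ab plants, OsCOI2 in oscoi2 plants, and OsAFB2 is lower after JA in oscoi1ab and WT plants.

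OsCOI1a fell in the line edited in it. It was counted at 24.7, 13.7 and 16.5 CPM in oscoi1ab mock libraries, against 95.1, 70.3 and 108 CPM in WT mock libraries. After JA it stood at 24.3, 8.38 and 12.8 CPM in oscoi1ab, against 85.1, 80.4 and 81.6 CPM in WT plants. The lines did not overlap in either treatment, and library 1 was the highest of the oscoi1ab libraries in both. The level in oscoi1ab plants was 20.0% of that in WT plants under mock (95% interval 12.9 to 31.1%; log2FC -2.32, standard error 0.30, FDR = 0.0012) and 18.4% after JA (11.8 to 28.7%; log2FC -2.44, standard error 0.30, FDR = 5.7e-04). Without oscoi1ab mock library 3, the mock difference missed the limit (log2FC -2.25, FDR = 0.0108). In oscoi2 plants OsCOI1a ranged from 67.4 to 94.0 CPM over both treatments, which overlapped the WT range of 70.3 to 108 CPM.

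OsCOI1b, the other gene edited in oscoi1ab plants, did not fall below WT plants by the test there. Mock libraries held 118, 116 and 103 CPM in oscoi1ab, against 124, 137 and 142 CPM in WT plants. Although the libraries did not overlap, log2FC was -0.26 (standard error 0.11, FDR = 0.995). After JA, OsCOI1b had 82.2, 89.1 and 88.4 CPM in oscoi1ab plants, against 89.5, 99.9 and 102 CPM in WT plants (log2FC -0.17, standard error 0.11, FDR = 1). The 95% intervals, 71.2 to 98.0% of WT under mock and 75.9 to 104% after JA, lie above that of OsCOI1a in each treatment. Under mock, 1 of the 5 members passed the FDR limit in oscoi1ab plants and 2 did not overlap with WT plants, where 0.181% of all genes tested passed and 10.2% did not overlap. After JA these numbers were again 1 and 2, with 0.178% and 9.18% of all genes.

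OsCOI2 fell in the line edited in it. Under mock, oscoi2 libraries held 23.2, 25.7 and 24.1 CPM and WT libraries 42.8, 36.1 and 52.0 CPM. After JA the values were 22.6, 28.6 and 22.3 CPM in oscoi2, against 43.9, 44.1 and 48.1 CPM in WT plants. No oscoi2 library reached the lowest WT library in either treatment. The level in oscoi2 plants was 55.7% of WT under mock (95% interval 45.5 to 68.2%; log2FC -0.84, standard error 0.14, FDR = 0.0044) and 54.0% after JA (44.1 to 66.2%; log2FC -0.89, standard error 0.14, FDR = 4.5e-04), short of a DEG. The mock difference missed the limit without WT mock library 1 (log2FC -0.86, FDR = 0.0131) or 3 (-0.70, 0.0262) or oscoi2 mock library 1 (-0.81, 0.0317) or 3 (-0.84, 0.0246).

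OsCOI2 did not differ by the test in the line edited in its homologs. Mock libraries of oscoi1ab plants held 45.7, 38.5 and 43.8 CPM of OsCOI2 and JA libraries 40.2, 45.2 and 52.1 CPM, overlapping with the WT libraries in both treatments. Log2FC against WT plants was -0.03 (95% interval -0.32 to 0.26) under mock and 0.02 (-0.27 to 0.31) after JA.

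The genes that were not edited in oscoi2 plants stood lower there under mock in most cases, without passing the limit. OsCOI1b had 87.7, 101 and 86.3 CPM in oscoi2 mock libraries, against 124, 137 and 142 CPM in WT mock libraries (log2FC -0.55, standard error 0.11, FDR = 0.0107). OsAFB2 had 245, 257 and 252 CPM in oscoi2, against 284, 291 and 320.4 CPM in WT plants (log2FC -0.25, standard error 0.07, FDR = 0.0565). OsTIR1 had 58.4, 59.9 and 59.5 CPM in oscoi2, against 61.2, 63.7 and 65.6 CPM in WT plants (log2FC -0.10, standard error 0.11, FDR = 0.639). In these 3 genes and in OsCOI2, each oscoi2 library lay below each WT library, which makes 4 of 5 members. Of all genes tested, 26.9% did not overlap in this comparison, 12.3% with oscoi2 plants lower, and 0.945% passed the FDR limit. The call for OsCOI1b depends on the test: it passed with DESeq2, limma-voom and edgeR's likelihood ratio test (log2FC -0.56, -0.55 and -0.55), and also without oscoi2 mock library 2 (-0.63, FDR = 0.0067) or oscoi2 JA library 2 (-0.56, FDR = 0.0052).

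After JA, OsCOI2 was the member that passed between oscoi2 and WT plants, 1 of 5, where 7.62% of all genes did. OsCOI2 and OsAFB2 did not overlap, 2 of 5, where 32% of all genes did not. OsAFB2 was now higher in oscoi2 plants, at 275, 278 and 284 CPM, against 228, 239 and 229 CPM in WT plants, with no overlap but an FDR above the limit (log2FC 0.27, standard error 0.07, FDR = 0.0206). It passed with DESeq2 (log2FC 0.23, FDR = 0.0032). OsCOI1b, at 90.7, 119 and 95.05 CPM in oscoi2 and 89.5, 99.9 and 102 CPM in WT plants, no longer stood apart (log2FC 0.06, 95% interval -0.17 to 0.29).

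**Figure D2:**
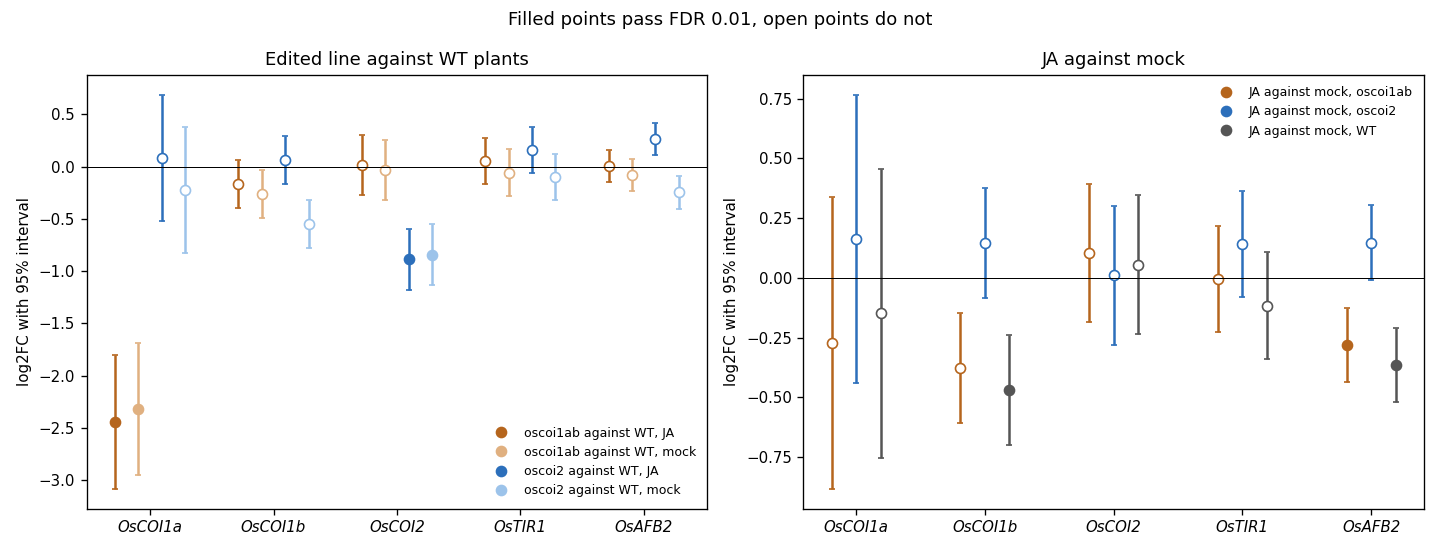
Log2FC of the 5 receptor genes with 95% intervals, for each edited line against WT plants after JA and under mock (left) and for JA against mock in each line (right). Filled points pass the FDR limit of 0.01. OsCOI1a at -2.44 and -2.32 is the farthest from 0 on the left, and on the right the points for oscoi2 plants lie above those for WT plants in all genes but OsCOI2.

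In WT plants, OsCOI1b and OsAFB2 fell after JA, by amounts well under 2-fold. OsCOI1b was counted at 89.5, 99.9 and 102 CPM in WT JA libraries, against 124, 137 and 142 CPM in WT mock libraries, which is 72.3% of the mock level (95% interval 61.6 to 84.8%; log2FC -0.47, standard error 0.11, FDR = 0.0030). OsAFB2 was counted at 228, 239 and 229 CPM after JA, against 284, 291 and 320.4 CPM under mock, or 77.7% (69.7 to 86.5%; log2FC -0.36, standard error 0.07, FDR = 0.00095). Both genes separated the treatments without overlap. These 2 of 5 members compare with 24.8% of all genes that passed in WT plants, 11.4% downward, and with 48.3% that did not overlap. For OsCOI1b the call was lost without WT mock library 2 (log2FC -0.45, FDR = 0.0110) or 3 (-0.43, 0.0144) or WT JA library 1 (-0.41, 0.0181), whereas the call for OsAFB2 held in each of the 18 omissions.

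OsCOI1a, OsCOI2 and OsTIR1 did not pass in WT plants after JA. OsTIR1 had 53.9, 59.6 and 62.2 CPM in WT JA libraries and 61.2, 63.7 and 65.6 CPM in WT mock libraries (log2FC -0.12, 95% interval -0.34 to 0.11). For OsCOI2, the gene edited in the oscoi2 line, log2FC was 0.06 (-0.23 to 0.35), and for OsCOI1a it was -0.15 (-0.75 to 0.46), the widest interval of the members. The direction for OsCOI2 turned with scaling by library size alone (log2FC -0.29), which moves the median gene by -0.35 in this comparison and also takes OsTIR1 past the limit (log2FC -0.47, FDR = 0.0030). Measured from the median log2FC of all genes, OsAFB2 stood at -0.32 and OsCOI1b at -0.42 under TMM, DESeq2's size factors and library size alike. A change of scaling shifts all genes nearly alike. This agreement therefore follows from the subtraction and does not test the scaling.

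In oscoi1ab plants OsAFB2 fell after JA as well, and OsCOI1b narrowly missed the limit. OsAFB2 had 227, 244 and 226 CPM in JA libraries, against 281, 288 and 277 CPM in mock libraries, and fell by 0.28 on the log2 scale (standard error 0.07, FDR = 0.0064), to 82.4% (95% interval 74.0 to 91.7%). OsCOI1b had 82.2, 89.1 and 88.4 CPM after JA, against 118, 116 and 103 CPM under mock, with log2FC -0.38 (standard error 0.11) and an FDR of 0.0119, just above the limit. Both genes were without overlap, 2 of 5 members against 51.7% of all genes. The 1 member that passed stands beside 26.4% of all genes. The call for OsAFB2 was lost without oscoi1ab mock library 1 (log2FC -0.28, FDR = 0.0182), 2 (-0.26, 0.0260) or 3 (-0.29, 0.0142) or oscoi1ab JA library 1 (-0.26, 0.0244) or 3 (-0.26, 0.0285), and that for OsCOI1b was gained without oscoi2 JA library 2 (-0.39, 0.0034).

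In oscoi2 plants no member passed after JA, where 8.76% of all genes tested did. OsAFB2 went the other way, with 275, 278 and 284 CPM in oscoi2 JA libraries, all above the 245, 257 and 252 CPM of oscoi2 mock libraries, but short of the limit (log2FC 0.15, 95% interval -0.01 to 0.30, FDR = 0.191). That made 1 of 5 members without overlap, with 33.2% of all genes. OsCOI1b had 90.7, 119 and 95.05 CPM after JA and 87.7, 101 and 86.3 CPM under mock, with overlap (log2FC 0.15, -0.08 to 0.38). OsTIR1 had 55.3, 62.9 and 77.9 CPM in oscoi2 JA libraries, the widest spread of this gene, since library 3 was its highest value of all 18, and 58.4, 59.9 and 59.5 CPM under mock. With library size alone the values for OsAFB2 and OsCOI1b were both 0.00 on the log2 scale, with a median gene at -0.16.

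The difference between the JA responses was tested directly as an interaction, the log2FC after JA in one line minus that in the other. For OsAFB2 the response in oscoi2 plants was higher than that in WT plants by 0.51 on the log2 scale (standard error 0.10, 95% interval 0.29 to 0.73, FDR = 0.0052), which passed, while 4.01% of all genes did. For OsCOI1b it was higher by 0.61 (standard error 0.15, 95% interval 0.29 to 0.94, FDR = 0.0184), which did not, but passed with the replicate number as a block (FDR = 0.0096). Against oscoi1ab plants the differences were 0.43 (FDR = 0.0143) for OsAFB2 and 0.52 (FDR = 0.0403) for OsCOI1b, and 0 of 5 members passed, where 4.6% of all genes did. Both comparisons use the same oscoi2 libraries. The call for OsAFB2 was lost, at an FDR of 0.0119 to 0.0173, in 7 of 18 omissions: WT mock library 3 (log2 difference 0.46), WT JA library 1 or 3 (0.50 each), oscoi2 mock library 1 (0.49) or 3 (0.51) and oscoi2 JA library 2 (0.52) or 3 (0.50). Under library size alone the difference was 0.71 with the median gene at 0.22. Measured from that median it was 0.50, which follows from the subtraction and does not test the scaling.

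Between oscoi1ab and WT plants the JA response of no member differed by the test. The differences lay between -0.12 for OsCOI1a and 0.11 for OsTIR1, and for OsAFB2 the 95% interval was -0.13 to 0.30. In edgeR's quasi-likelihood test 0 of all genes tested passed in this comparison (0%). Of the 30907 genes, 903 had an unadjusted p under 0.05, a smaller share than that limit itself.

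Of the 8 calls made for the members, 7 were lost when only the libraries of the groups compared were fitted, at an FDR of 0.0105 to 0.0418 and with log2 differences much as before. The exception was OsCOI2 in oscoi2 against WT plants after JA. That of OsAFB2 after JA in oscoi1ab plants was also lost with edgeR's likelihood ratio test (FDR = 0.0153) and, like that of OsAFB2 between the responses of oscoi2 and WT plants, without a filter on low counts (FDR = 0.0157 and 0.0155).

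Of the 6 listed root markers, RCc3 and OsLsi1, a silicon transporter, fell after JA in oscoi1ab (log2FC -1.10 and -0.93, FDR = 7.0e-05 and 1.8e-04) and WT plants (-0.92 and -0.64, FDR = 3.8e-04 and 0.0040). In oscoi2 plants their values were -0.55 (FDR = 0.0317) and -0.03 (FDR = 0.920). The other 4 did not pass in any line. Of all genes tested, 26.4% passed after JA in oscoi1ab, 8.76% in oscoi2 and 24.8% in WT plants, in either direction. The summed level of the 6 listed markers was 3337 to 4354 CPM in WT JA libraries, against 5332 to 6008 CPM in WT mock libraries, and 3492 to 4155 CPM in oscoi1ab JA libraries, against 6141 to 7157 CPM in oscoi1ab mock libraries. In oscoi2 plants it was 5265 to 6099 CPM after JA and 5853 to 7101 CPM under mock, with overlap. None of these markers was at 0 in any library. Of 2 listed leaf markers, OsRBCS2 was at 0.550 CPM or below in every library, and their summed level was nearly all CAB1R, which encodes a chlorophyll-binding protein. This sum was 44.3, 190.0 and 189 CPM in oscoi1ab JA libraries, against 184, 404 and 325 CPM in oscoi1ab mock libraries. It was 136, 248 and 184 CPM in oscoi2 JA libraries, against 59.5, 154 and 175 CPM in oscoi2 mock libraries, and 75.4, 206 and 162 CPM in WT JA libraries, against 130.01, 374 and 295 CPM in WT mock libraries. Library 1 was the lowest in all 6 groups. In this sum, JA and mock libraries overlapped in each line. At equal library numbers the JA library was the lower in all 3 cases in oscoi1ab and in WT plants. In oscoi2 plants it was the higher in all 3. By the check described below, equal numbers pair JA and mock libraries in WT plants only. OsAFB2 went the same ways without overlap, whereas CAB1R itself did not pass in any line. The paper reports that JA lowered many photosynthesis genes in WT and oscoi1ab plants, light-harvesting genes among them, but hardly any in oscoi2 plants. The level of CAB1R is therefore not a measure of cell numbers alone. In bulk tips, fewer cells of a type and less RNA per cell cannot be told apart, and the part of such a shift in the values of OsAFB2 and OsCOI1b was not tested.

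Ordering the 6 groups by mean level places the closest groups side by side, so that overlap of neighbours is a description only. For OsCOI1a the order ran from WT mock over oscoi2 JA, WT JA and oscoi2 mock to oscoi1ab mock and oscoi1ab JA. Only oscoi2 mock and oscoi1ab mock were neighbours without overlap. For OsCOI1b, WT mock (135 ± 9.05 CPM, SD, n = 3) stood above oscoi1ab mock (112 ± 7.89 CPM) without overlap, and the other neighbours overlapped, down to oscoi1ab JA (86.6 ± 3.76 CPM). For OsCOI2 the gap lay between oscoi1ab mock (42.6 ± 3.73 CPM) and oscoi2 JA (24.5 ± 3.51 CPM).

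OsAFB2 had 2 such gaps, on either side of oscoi2 mock (252 ± 6.10 CPM): oscoi2 JA (279 ± 4.56 CPM), oscoi1ab mock and WT mock (298 ± 19.4 CPM) were above it, and oscoi1ab JA (232 ± 10.6 CPM) and WT JA (232 ± 6.31 CPM) below. OsTIR1 had none. Its group means ran from 58.6 ± 4.27 CPM in WT JA to 65.4 ± 11.5 CPM in oscoi2 JA libraries (SD, n = 3), a ratio of 1.12, against 6.03 for OsCOI1a, 1.89 for OsCOI2, 1.55 for OsCOI1b and 1.29 for OsAFB2. OsTIR1 passed in none of the 10 comparisons.

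Shares within a library do not depend on the scaling between libraries. They were taken from CPM not divided by transcript length, so that a share can be compared between groups, but not between genes. OsCOI1a made up 10.5% ± 2.49 of the summed OsCOI counts in oscoi1ab mock libraries and 33.7% ± 4.15 in WT mock libraries (SD, n = 3). OsCOI2 took 24.6% ± 1.94 in oscoi1ab and 16.1% ± 1.21 in WT plants under mock, while log2FC of its level was -0.03. In oscoi2 mock libraries OsCOI2 took 12.6% ± 0.868.

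After JA, OsCOI2 took 31.0% ± 3.36 of the OsCOI counts in oscoi1ab, 11.5% ± 0.550 in oscoi2 and 20.2% ± 0.546 in WT libraries, with no overlap between lines. JA libraries of WT plants lay below mock libraries in the share of OsCOI1b (43.2% ± 1.95 after JA and 50.2% ± 5.27 under mock) and above them in the share of OsCOI2. Without WT mock library 2 the difference for OsCOI1b was -3.99 percentage points, against -7.03 with all libraries. In oscoi1ab plants JA libraries likewise lay below mock libraries in the share of OsCOI1b (58.7% ± 3.32 after JA and 64.9% ± 3.49 under mock) and above them in that of OsCOI2. In oscoi2 plants the share of OsCOI2 was lower after JA, without overlap (a difference of -1.11 percentage points, and of -0.62 without oscoi2 mock library 3), and that of OsCOI1b was 47.5% ± 1.60 after JA and 47.3% ± 1.09 under mock, with overlap.

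OsAFB2 made up 79.8% ± 1.13 of the counts of OsTIR1 and OsAFB2 in WT JA libraries and 82.4% ± 0.508 in WT mock libraries, and 79.2% ± 1.45 and 82.2% ± 0.505 in oscoi1ab JA and mock libraries, each without overlap. In oscoi2 plants it was 81.1% ± 2.43 after JA and 80.9% ± 0.186 under mock. An exact two-sided permutation test of 3 against 3 libraries cannot give a p under 0.1, and none of the 28 comparisons of a share could therefore pass (the lowest p was 0.1, adjusted 0.16).

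**Figure D3:**
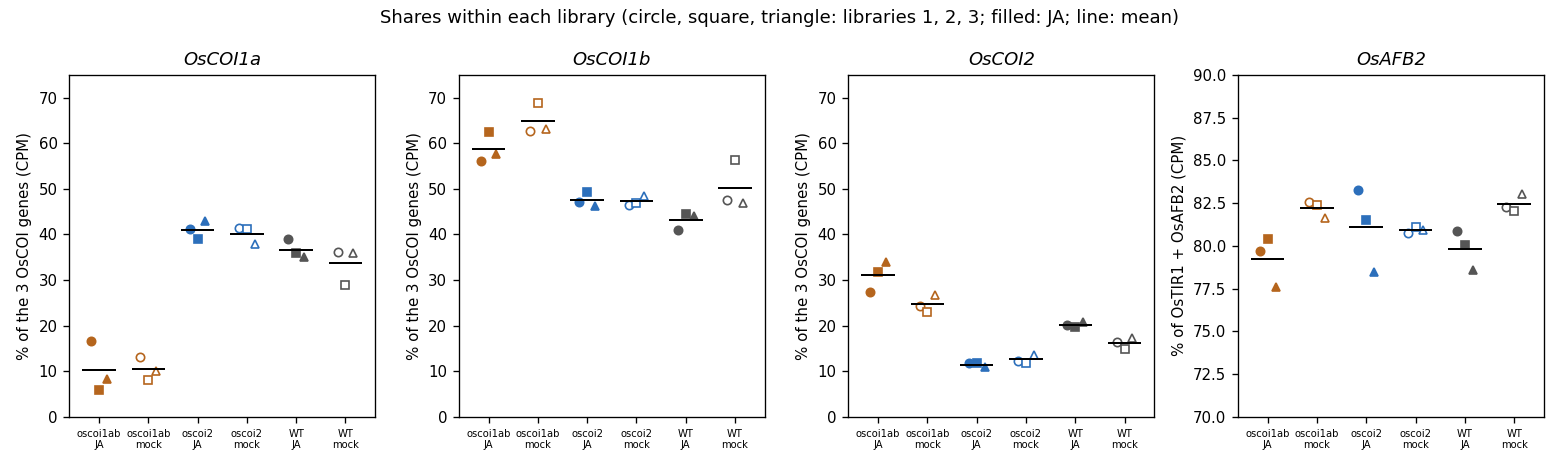
Share of each OsCOI gene in the summed CPM of the 3 OsCOI genes, and of OsAFB2 in OsTIR1 plus OsAFB2 (right, axis from 70 to 90%), in each library by line and treatment. Points are libraries (filled for JA, open for mock) and lines means. The OsCOI2 share is highest in oscoi1ab JA libraries (31.0%) and lowest in oscoi2 JA libraries (11.5%).

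OsJAZ genes, which encode the repressors that COI receptors bind, mostly rose after JA. Of these genes, 14 of 15 were tested, and 13 rose as DEGs after JA in WT plants, where 7.48% of all genes did. In oscoi1ab plants 12 rose, again beside 7.48% of all genes, and in oscoi2 plants 9 rose, beside 2.99%. No OsJAZ gene fell in any of the lines. The median log2FC of the 14 genes was 4.63 in oscoi1ab, 1.78 in oscoi2 and 3.97 in WT plants, whereas the median over all genes tested lay between -0.05 and -0.01. After JA, 9 of 14 were DEGs with lower levels in oscoi2 than in WT plants (2.22% of all genes).

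The JA response of oscoi2 plants was lower as a DEG than that of WT plants in 7 OsJAZ genes (1.63% of all genes) and lower than that of oscoi1ab plants in 10 (1.85%). The 7 became 4 without WT JA library 3, oscoi2 mock library 3 or oscoi2 JA library 2. OsJAZ11 had 78.3 CPM in oscoi2 JA libraries, against 503 CPM in WT JA libraries (log2FC -2.68, standard error 0.42, FDR = 5.2e-04), and OsJAZ5 had 3.81 CPM, against 31.7 CPM (log2FC -3.05, standard error 0.68, FDR = 0.0059). The call for OsJAZ5 was lost without any of the oscoi2 JA or WT JA libraries (log2FC -3.29 to -2.77) and with the likelihood ratio test (FDR = 0.0115) and DESeq2 (FDR = 0.0270). Many OsJAZ genes were analysed in the study on these libraries, so their direction is not independent evidence.

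The Aux/IAA genes, which encode the auxin co-receptors and repressors, moved in both directions. Of 31 listed genes 30 were in the data and 27 were tested. After JA, 4 rose and 7 fell as DEGs in oscoi1ab, 1 rose and 1 fell in oscoi2, and 3 rose and 4 fell in WT plants. The percentages over all genes were 7.48% up and 8.15% down in oscoi1ab, 2.99% and 1.47% in oscoi2, and 7.48% and 6.56% in WT plants. The median log2FC of the 27 genes was -0.25 in oscoi1ab, -0.28 in oscoi2 and 0.03 in WT plants. The balance rested on scaling: by library size alone 1 rose and 9 fell in WT plants. The 4 that fell in WT plants became 1 without WT JA library 3, and the 7 in oscoi1ab plants became 4 without oscoi1ab JA library 3. In oscoi2 plants the 1 that fell became 2 without WT JA library 3, oscoi2 mock library 2 or oscoi2 JA library 1 or 3, and 0 without oscoi2 mock library 3 or oscoi2 JA library 2.

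OsIAA16 (LOC_Os05g09480) had the largest JA response of the Aux/IAA genes in WT plants. It was counted at 91.5, 85.8 and 82.6 CPM in WT JA libraries, against 3.85, 5.10 and 4.77 CPM in WT mock libraries (log2FC 4.24, standard error 0.15, FDR = 1.2e-11). In oscoi1ab plants it had 99.1, 103 and 90.7 CPM after JA, against 8.48, 7.64 and 8.35 CPM under mock, and in oscoi2 plants 33.4, 38.1 and 27.1 CPM, against 7.96, 6.83 and 6.56 CPM. Treatments did not overlap in any line, and oscoi2 JA libraries lay below all other JA libraries. The response in oscoi2 plants was lower than in WT plants by 2.04 on the log2 scale (log2FC -2.04, standard error 0.18, FDR = 1.8e-05) and lower than in oscoi1ab plants (log2FC -1.38, standard error 0.18, FDR = 2.3e-04), and both calls held in every alternative and omission run. OsIAA16 was named for its large response in WT plants, which is part of the difference from WT plants.

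Under mock, OsIAA16 was the 1 Aux/IAA gene of 27 that passed the FDR limit in oscoi1ab against WT plants (log2FC 0.83, standard error 0.13, FDR = 0.0056), beside 0.133% of all genes upward. That call was lost in 8 of 18 omissions, among them each of the 6 libraries compared (log2FC 0.73 to 0.92), and with only those libraries (FDR = 0.246) or limma-voom (FDR = 0.0955). OsIAA25 (LOC_Os08g01780), the gene with the largest fall in WT plants, had 0.836 CPM after JA, against 4.29 CPM under mock (log2FC -2.36, standard error 0.38, FDR = 1.3e-04).

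**Figure D4:**
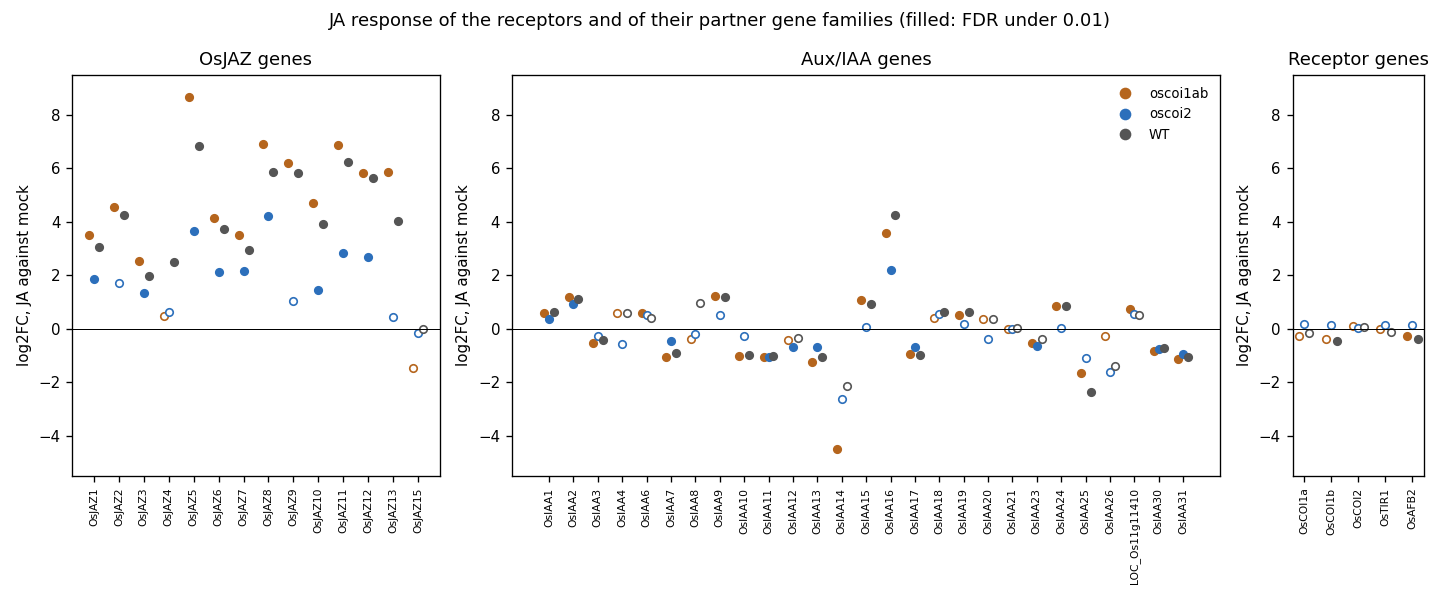
Log2FC of JA against mock in oscoi1ab, oscoi2 and WT plants for the OsJAZ genes tested (left), the Aux/IAA genes tested (middle) and the 5 receptor genes (right), on 1 scale. Filled points have an FDR under 0.01. OsJAZ genes have a median of 3.97 in WT and 1.78 in oscoi2 plants, and the receptor genes lie between -0.47 and 0.16.

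The genes whose pattern was most like that of each member were found by Pearson's r of log2 CPM over the 18 libraries, among 17615 genes of at least 5 CPM on average. The libraries share lines, treatments and scaling, so that r is a description only. For OsAFB2 they were LOC_Os10g28680 (r = 0.954) and LOC_Os03g24950 (0.943), for OsCOI2 Os11g0303200 (0.929) and LOC_Os04g32350 (0.926), and for OsCOI1b LOC_Os01g37350 (0.925) and LOC_Os08g36860 (0.884). For OsCOI1a they were LOC_Os01g09410 (0.903) and LOC_Os01g09384 (0.895), and for OsTIR1, the gene that varied least, LOC_Os03g02560 (0.810) and LOC_Os03g62610 (0.785).

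LOC_Os10g28680 shows the pattern of OsAFB2 in larger steps, with 20.4 CPM in oscoi1ab JA and 31.1 CPM in oscoi1ab mock libraries, 28.4 and 21.8 CPM in oscoi2 JA and mock libraries, and 20.2 and 33.9 CPM in WT JA and mock libraries. LOC_Os04g32350 was low in oscoi2 plants, like OsCOI2, at 15.4 CPM after JA and 17.2 CPM under mock, against 35.8 CPM in WT JA and 34.2 CPM in WT mock libraries. Among the members themselves, OsCOI1b and OsAFB2 were the most alike pair (r = 0.785), and OsCOI1a and OsCOI2 the least (r = -0.419).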

How the data were processed

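RNA-seq counts of 18 libraries, 3 for each of 6 combinations of line and treatment, were analysed. Per the authors' methods, CutAdapt trimmed the 150-bp paired reads, HiSat2 aligned them to the rice references (MSU7, RAP-DB), StringTie built transcripts, and counts came from the authors' own script. The deposited values are estimated counts per gene in whole numbers, unnormalized, at an assumed 3.7 counts per read pair. Whether strand was used is not given in the sources used here.

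Genes whose counts summed to 180 or more entered edgeR 4.0.16 (R 4.3.3), where 6 groups were fitted together after TMM scaling and contrasts tested by quasi-likelihood. The 10 contrasts set either edited line against WT plants in each treatment, JA against mock in each line, and the JA responses of the lines against each other. The standard error is the size of log2FC divided by the square root of F. Alternatives used limma 3.58.1 and DESeq2 1.42.0, and tables were handled with pandas 2.3.3 and numpy 2.4.6 and plotted with matplotlib 3.10.9 under Python 3.11.15. The fit was also run on simulated data, but the outcome is not given here and no result rests on it. With no coding lengths, levels are not compared between genes. Names of list genes were compared with the study and with RefSeq synonyms (50 of 62 genes matched in RefSeq). OsJAZ4 and OsJAZ8 matched the same RefSeq record, so that a match of names does not fix the locus. OsTIR1, OsAFB2, RCc3 and OsRBCS2 are among those without a RefSeq match and are described under their listed names. A further 3 listed loci without a matching name are not described. Members and lists were chosen with earlier results of these data known. Named by rule were the members, per list the 2 genes of largest JA response in WT plants and those that passed under mock, and per member the 2 most similar genes. Samples are separate pools of plants per the methods.

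Replicate numbers are shared between groups. After group means were removed, equal numbers were taken to pair libraries when r was at least 0.1 in all 3 pairs. This held between oscoi1ab and WT plants under mock (r = 0.470, 0.315 and 0.239) and between JA and mock in WT plants (0.337, 0.376 and 0.287). Other comparisons had a pair below that limit. Between JA and mock, r was still positive in each pair in oscoi2 (0.215, 0.468 and 0.0913) and oscoi1ab plants (0.0552, 0.250 and 0.157). It was also positive between oscoi1ab and WT plants after JA (0.0846, 0.317 and 0.294), and of mixed sign between oscoi2 and WT plants. The fit has no block, and the block is an alternative.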

Additional observations from a re-analysis of the deposited data

Results flagged for a closer look

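The JA response of OsAFB2 differed between oscoi2 and WT plants in a test of the difference itself: log2FC after JA was 0.15 in oscoi2 and -0.36 in WT plants, a difference of 0.51 on the log2 scale (edgeR quasi-likelihood interaction, FDR = 0.0052). All 3 oscoi2 JA libraries lay above all 3 oscoi2 mock libraries, and all 3 WT JA libraries below all 3 WT mock libraries. Of all genes tested, 33.2% did not overlap in oscoi2 plants and 48.3% in WT plants. The rise of OsAFB2 in oscoi2 plants did not pass (FDR = 0.191). The call for the difference was lost in 7 of 18 omissions of a library, at an FDR of at most 0.0173. It was also lost with only the libraries compared (FDR = 0.0188) and without a filter on low counts (FDR = 0.0155). Against oscoi1ab plants the difference was 0.43 and did not pass (FDR = 0.0143). No test for a single deviating sample was made, since each group has 3 samples.

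OsIAA16, OsJAZ11 and OsJAZ5 were named for their large JA response in WT plants. That response is part of the difference from WT plants, so that the choice itself favours a lower value in oscoi2 plants, and over the lists 1 of 27 Aux/IAA and 7 of 14 OsJAZ genes were lower DEGs in that comparison. The response in oscoi2 plants was lower than in WT plants for OsIAA16 (log2FC -2.04, FDR = 1.8e-05) and OsJAZ11 (-3.39, FDR = 0.0019). It was lower than in oscoi1ab plants for OsIAA16 (-1.38, FDR = 2.3e-04), OsJAZ11 (-4.02, FDR = 5.1e-04) and OsJAZ5 (-5.01, FDR = 0.0099). OsJAZ5 was at 0, 0 and 0.197 CPM in oscoi1ab mock libraries, and its call was lost in 14 of 18 omissions of a library, at an FDR of at most 0.0440. Its value was -10.9 without oscoi1ab mock library 3, which leaves that group at 0, and -4.36 without oscoi2 mock library 3.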

How the results depend on the processing

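Over the 5 members and 10 comparisons, 11 other settings and the fits without 1 of the 18 libraries gave 1450 values, of which 1348 kept both the direction and the side of the FDR limit. No call reversed, and the cause of the changes below was not tested. Values are log2FC. Omissions moved no share difference by more than 1 SD, and the other share alternatives (counts divided by 3.7, sign flips over equal replicate numbers) cannot move one. Shares per coding length were not run, since no lengths were at hand.

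With only the libraries compared, which leaves fewer samples to estimate the spread, calls were lost for OsCOI1a in oscoi1ab against WT plants (-2.31 under mock, -2.43 after JA), OsCOI2 in oscoi2 against WT plants under mock (-0.86), OsCOI1b (-0.45) and OsAFB2 (-0.35) after JA in WT plants, OsAFB2 after JA in oscoi1ab plants (-0.29), and OsAFB2 between the responses of oscoi2 and WT plants (0.51). OsAFB2 also lost its call after JA in oscoi1ab plants with the likelihood ratio test (-0.28) and without a filter on low counts (-0.30), and its call between the responses without that filter (0.52).

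OsCOI1b in oscoi2 against WT plants under mock passed with the likelihood ratio test (-0.55), an FDR limit of 0.05 (-0.55), counts divided by 3.7 (-0.55), limma-voom (-0.55) and DESeq2 (-0.56). After JA in oscoi1ab plants it passed at 0.05 (-0.38), by library size (-0.73), with filterByExpr (-0.39) and with DESeq2 (-0.38). Between the responses of oscoi2 and WT plants it passed with the likelihood ratio test (0.61), at 0.05 (0.61), by library size (0.81) and with DESeq2 (0.59), and between those of oscoi2 and oscoi1ab plants at 0.05 (0.52) and by library size (0.73). OsAFB2 passed in oscoi2 against WT plants with DESeq2 under mock (-0.25) and, after JA, at 0.05 (0.27), by library size (0.41) and with DESeq2 (0.23), and between the responses of oscoi2 and oscoi1ab plants at 0.05 (0.43), by library size (0.64) and with DESeq2 (0.42).

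Library size alone moves the median gene after JA by -0.36 in oscoi1ab, -0.15 in oscoi2 and -0.35 in WT plants. It took OsTIR1 past the limit after JA in WT plants (-0.47) and turned uncalled directions: OsCOI2 after JA in oscoi1ab (-0.25), oscoi2 (-0.14) and WT plants (-0.29), OsCOI1b (-0.0030), OsTIR1 (-0.0057) and OsAFB2 (-0.0018) after JA in oscoi2 plants, and OsCOI2 between the responses of oscoi2 and WT (0.16) or oscoi1ab plants (0.11). The uncalled value of OsAFB2 in oscoi1ab against WT plants after JA turned to -0.010 with DESeq2's size factors and with DESeq2, to -0.0031 without the filter and to -0.0023 with filterByExpr.

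With the replicate block, OsCOI1b passed in 3 comparisons: oscoi2 against WT plants under mock (-0.55), oscoi1ab plants after JA (-0.38) and the responses of oscoi2 and WT plants (0.61). By the limit of 0.1 in all 3 pairs, equal numbers do not pair the samples in oscoi2 against WT plants under mock or in oscoi1ab plants after JA. In the latter r was still positive in each pair. For the responses the check was made by line, and numbers pair JA and mock libraries in WT plants. In oscoi2 plants they narrowly miss the limit, with a lowest r of 0.0913. The block changed no other call of a member.

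When 1 library was left out, called values ranged from -2.60 to -2.15 for OsCOI1a in oscoi1ab against WT plants under mock, -0.96 to -0.70 for OsCOI2 in oscoi2 against WT plants under mock, -0.52 to -0.41 for OsCOI1b after JA in WT plants, -0.32 to -0.26 for OsAFB2 after JA in oscoi1ab plants and 0.46 to 0.55 for OsAFB2 between the responses of oscoi2 and WT plants, each with a call lost. OsCOI1b gained a call in oscoi2 against WT plants under mock (-0.63 to -0.51) and after JA in oscoi1ab plants (-0.43 to -0.34). Uncalled values that turned direction were those of OsCOI2 in oscoi1ab against WT plants under mock (-0.15 to 0.11) and after JA (-0.086 to 0.10), OsTIR1 (-0.0019 to 0.10) and OsAFB2 (-0.035 to 0.026) in oscoi1ab against WT plants after JA, OsCOI1b in oscoi2 against WT plants after JA (-0.070 to 0.14), OsCOI2 after JA in WT (-0.064 to 0.20) and oscoi2 plants (-0.11 to 0.074), OsCOI1a (-0.79 to 0.019) and OsTIR1 (-0.055 to 0.032) after JA in oscoi1ab plants, and OsTIR1 after JA in oscoi2 plants (-0.0038 to 0.25). Between responses they were OsCOI1a (-0.64 to 0.17) and OsCOI2 (-0.10 to 0.17) for oscoi1ab against WT plants, and OsCOI2 for oscoi2 against WT (-0.19 to 0.075) and oscoi1ab plants (-0.20 to 0.0081).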
